A study of Homo sapiens with 6 samples.

Results

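The core components of the PI3K, AKT and mTOR pathway were followed by RNA-seq after SPANXB1 was silenced in brain-metastatic breast cancer cells. The 44 members were taken by gene symbol from a table of 16570 genes. They cover kinases, phosphatases, the mTOR complexes and direct substrates, and leave out ligands and receptors. All 44 were in the table, and 42 passed the filter for testing, a mean level of at least 1 FPKM over the 6 samples, as did 11439 genes in all. FPKM is a level per length of transcript and per number of mapped fragments, so it can be compared between genes.

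BR cells are the brain-seeking variant of MDA-MB-231, an established line of triple-negative breast cancer. The comparison was between 3 samples of BR-shCON cells, which carry a control vector and are called controls below, and 3 samples of BR-shSPANXB1 cells, the knockdown, which carry a lentiviral shRNA against SPANXB1, a cancer-testis antigen. Both groups were stable lines selected with puromycin and grown in the same medium. A single shRNA was used, and the labels do not say whether a line came from a single clone or whether a numbered sample was a separate culture, although the series calls its samples independent, so p-values measure the spread between these samples. The extraction protocol in the labels names parental MDA-MB-231 cells and the BR variant rather than the knockdown lines, and groups follow the titles.

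Class I PI3K is a dimer of a catalytic and a regulatory subunit that makes the membrane lipid PIP3. PIP3 brings PDPK1 and AKT to the membrane, where AKT is phosphorylated by PDPK1 and by mTOR complex 2, while lipid phosphatases and the protein phosphatases PHLPP and PP2A oppose these steps. Active AKT inhibits TSC2, GSK3 and the FOXO transcription factors, and through RHEB this releases mTOR complex 1, which drives protein synthesis through S6 kinases and the 4E-BP proteins. The pathway is set mainly by phosphorylation and is often activated in breast cancer. RNA-seq reads transcript levels and says nothing of that phosphorylation.

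SPANXB1 was silenced in part. Its level fell from 508 ± 59.4 FPKM (SD, n = 3) in the controls to 247 ± 13.8 FPKM (SD, n = 3) after knockdown, and its log2 fold change was -1.11 (SE 0.055, adjusted p = 1.8e-14 by the quasi-likelihood test of edgeR, adjusted after Benjamini and Hochberg). MMP1, the collagenase on which the study centres, had a log2 fold change of -0.68 (edgeR adjusted p = 1.8e-13). The sequence that the shRNA targets is shown because a knockdown can also act on other transcripts that pair with it.
shSPANXB1 target: gaggaggaggaattcatagaa
All 21 bases occur in the SPANXB1 transcript. The longest run shared with a transcript of any member was 13 bases, gaggaggaggaat, in FOXO3. Of the members that rose or fell in the test below, AKT1 and CDC37 shared 11 bases with the target. INPP4B and PHLPP2 shared 9, MTOR, PIK3R3 and PPP2R1B 8 and FOXO4 7. The length of a run takes no account of where in the target it lies. No member was fully matched, and any effect of such short matches was not tested.

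Total estimated counts were 16294462 to 16666167 per sample, with TMM scaling factors of 0.9934 to 1.007. All 8 markers of MDA-MB-231 cells, such as VIM and CD44, were expressed, with a summed level of 3860 to 3890 FPKM in the controls and 3970 to 4210 FPKM in the knockdown samples. None of the 4 luminal breast markers reached 1 FPKM. PTPRC and CD14, which mark leukocytes, averaged below 1 FPKM, with a sum of 0.36 to 0.63 FPKM in the controls and 0.76 to 0.87 FPKM in the knockdown samples. PECAM1 and KDR among 4 endothelial markers and MBP among 4 neural markers averaged above 1 FPKM over the 6 samples. The endothelial markers summed to 3.0 to 3.48 FPKM in the controls and 2.8 to 3.13 FPKM in the knockdown samples. The neural markers, of which MBP alone averaged at least 1 FPKM, summed to 32.3 to 33.8 and 31.5 to 32.1 FPKM. In bulk RNA of this kind, fewer cells that carry a transcript and less of it per cell cannot be told apart.

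Most transcripts of the pathway were not called. Of the 42 tested members, 6 rose in BR-shSPANXB1 cells (PIK3R3, AKT1, PHLPP2, PPP2R1B, MTOR and FOXO4), 2 fell (INPP4B and CDC37) and 34 were not called, at an edgeR p under 0.05 after Benjamini-Hochberg adjustment over all 11439 genes. Over all genes tested, 6.82% were called higher and 6.98% lower, so 6 of 42 is above that share on the higher side and 2 of 42 is below it on the lower side. With so few genes, nothing particular to the pathway is read from these counts. The median log2 fold change of the members was 0.0092, against 0.00023 for all genes tested, and the median absolute log2 fold change was 0.077 in both. The members ranged from -0.17 (PIK3R1) to 0.39 (FOXO4). No member passed the study's own criteria, which add a minimum size of 0.59 on the log2 scale and a level above 1 FPKM in the controls and were met by 0.621% of all genes. At an unadjusted p under 0.05 in edgeR there were 15 members, against 26.9% of all genes tested, and DESeq2 and limma also found no member past those criteria.

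The data also bound what could have been missed. The 95% confidence intervals of all 34 members not called lay inside a log2 fold change of 0.59 either way, and 33 of them within 0.3. The lowest bound was -0.3, in SGK3, and the highest was 0.25, in PIK3CD. The counts behind a tested member ran from 148 to 5351 per sample, and the median SE of a log2 fold change was 0.05. The plot of log2 fold changes shows every tested member with its interval.

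**Figure D1:**
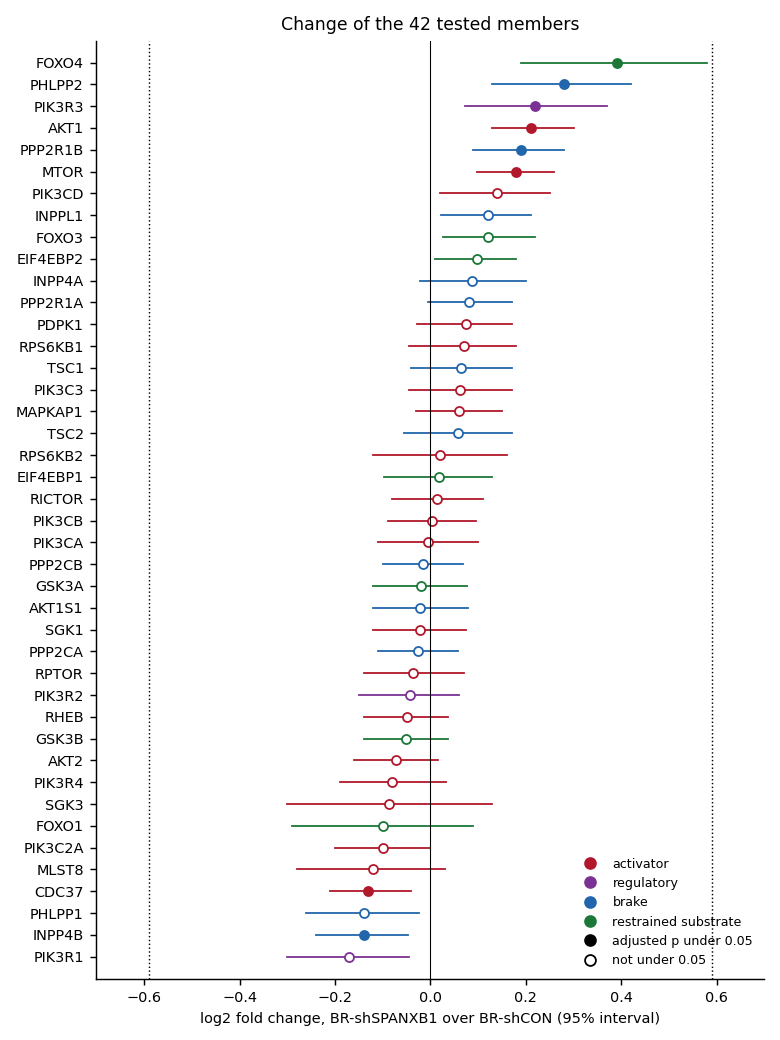
Log2 fold change, BR-shSPANXB1 against BR-shCON (horizontal axis) for the 42 tested members, ordered by size and coloured by role; bars are 95% confidence intervals of the edgeR fit, filled points have an adjusted p under 0.05, and dotted lines mark 0.59 either way. The 8 filled points lie between -0.14 and 0.39, and every interval stays inside the dotted lines.

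Activators and brakes were set apart by their known roles. Among 20 tested activators, 2 rose (AKT1 and MTOR) and 1 fell (CDC37), and 10 fold changes were above 0 and 10 below, with a median of -3.3e-05 on the log2 scale. Among 12 tested brakes, 2 rose (PHLPP2 and PPP2R1B) and 1 fell (INPP4B), with a median of 0.061. The 3 class I regulatory subunits, which both stabilise and restrain the catalytic subunit, held 1 member that rose (PIK3R3) and had a median of -0.043. The 7 substrates that AKT or mTOR complex 1 holds in check held 1 member that rose (FOXO4) and had a median of 0.018. Calls in either direction thus fell among both activators and brakes, and whether the roles differed from each other was not tested.

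The levels of the members spanned a wide range. The lowest mean over the 6 samples was 0.648 FPKM, in PIK3C2B, and the highest was 221 FPKM, in CDC37. EIF4EBP1 followed at 168 FPKM and RHEB at 121 FPKM, then AKT1 at 70.6, PPP2CA at 68.8 and PPP2CB at 67.1 FPKM. The ranges of PPP2CA and PPP2CB over the 6 samples overlapped, and the mean of AKT1 lay below theirs in the controls and above theirs after knockdown. The median tested member had a mean of 15.1 FPKM, against 13.9 FPKM for all genes tested.

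**Figure D2:**
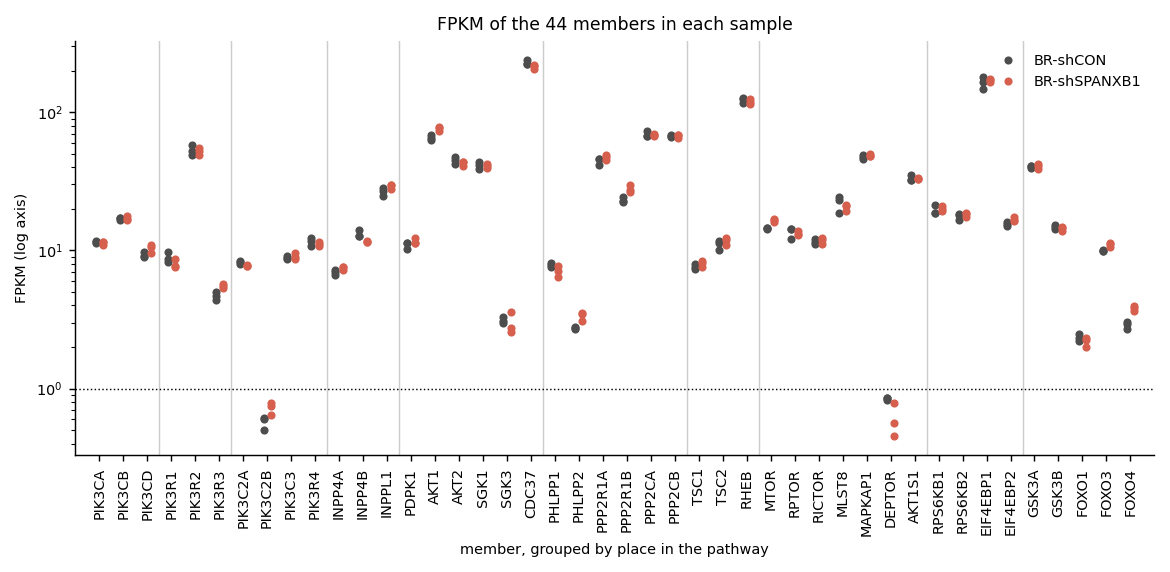
FPKM (log axis) of the 44 members in each of the 3 BR-shCON samples (grey) and 3 BR-shSPANXB1 samples (red), in order of place in the pathway, with vertical lines between blocks; the dotted line marks 1 FPKM, the filter. PIK3C2B and DEPTOR lie below the line, CDC37 is highest at a mean of 221 FPKM, and for most members the points of the groups overlap.

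AKT1, the most abundant AKT kinase here, rose. Its level was 67.96, 64.55 and 62.46 FPKM in BR-shCON samples 1 to 3 and 78.65, 76.95 and 73.22 FPKM in BR-shSPANXB1 samples 1 to 3. Every knockdown sample lay above every control sample. The group means were 65.0 ± 2.78 and 76.3 ± 2.78 FPKM (SD, n = 3 each), a difference of 17.4%, and the log2 fold change was 0.21 (SE 0.042, 95% interval 0.13 to 0.3, edgeR adjusted p = 0.00063). AKT1 lies at chr14:104769349-104795751 on the minus strand of GRCh38, and 5.9% of its exon bases are shared with an antisense gene, AL583722.2, on the other strand. The protocol mentions no strand-marking step, so reads from such a stretch cannot be assigned to either gene.

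AKT2, the other AKT kinase in the list, was not called. It measured 44.97, 47.55 and 42.03 FPKM in the controls and 43.96, 43.7 and 40.89 FPKM in the knockdown samples, and these groups overlapped. Its log2 fold change was -0.072 (95% interval -0.16 to 0.016, edgeR adjusted p = 0.3). As a result the share of AKT1 in the sum of AKT1 and AKT2 was 60.2%, 57.6% and 59.8% in control samples and 64.1%, 63.8% and 64.2% in knockdown samples. These shares did not overlap, and the sum itself went from 110 ± 4.65 to 119 ± 4.45 FPKM (SD, n = 3).

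The other kinases beside AKT were not called. PDPK1, which phosphorylates the activation loop of AKT, had a log2 fold change of 0.074 (edgeR adjusted p = 0.37). SGK1 and SGK3, AKT-related kinases with overlapping substrates, had values of -0.022 and -0.087 (edgeR adjusted p = 0.81 and 0.65). SGK3 was uneven, since BR-shSPANXB1 sample 3 stood at 3.56 FPKM while samples 1 and 2 stood at 2.55 and 2.76 FPKM.

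CDC37, the co-chaperone that loads kinases such as AKT onto HSP90, fell slightly. It measured 240.49, 223.56 and 224.12 FPKM in the controls and 216.45, 217.99 and 204.63 FPKM in the knockdown samples. The groups did not overlap, but the lowest control and the highest knockdown sample were close. The means were 229 ± 9.62 and 213 ± 7.31 FPKM (SD, n = 3), and the log2 fold change was -0.13 (SE 0.041, 95% interval -0.21 to -0.041, edgeR adjusted p = 0.041). The call was lost without BR-shCON sample 1 and without BR-shSPANXB1 sample 1, 2 or 3 (edgeR adjusted p up to 0.23), and limma on log2(FPKM + 0.1) gave an adjusted p of 0.18. CDC37 lies at chr19:10391134-10420121 on the minus strand and holds the microRNA gene MIR1181 within 2.7% of its exon bases.

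MTOR, the kinase shared by both mTOR complexes, rose by a small amount. It measured 14.4, 14.63 and 14.47 FPKM in the controls and 16.16, 16.55 and 16.97 FPKM in the knockdown samples. All knockdown samples were higher than all controls. The means were 14.5 ± 0.118 and 16.6 ± 0.405 FPKM (SD, n = 3), a difference of 14.2%, and the log2 fold change was 0.18 (SE 0.040, 95% interval 0.097 to 0.26, edgeR adjusted p = 0.0028). MTOR lies at chr1:11106535-11262507 on the minus strand, and the antisense gene MTOR-AS1 overlaps 1.8% of its exon bases.

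The partners of mTOR were not called. RPTOR, the scaffold that defines mTOR complex 1, had a log2 fold change of -0.037 (95% interval -0.14 to 0.07), and RICTOR, which defines complex 2, had 0.014 (95% interval -0.08 to 0.11). MLST8, a subunit of both complexes, had -0.12 (edgeR adjusted p = 0.31) and MAPKAP1, a subunit of complex 2 also known as SIN1, had 0.059 (edgeR adjusted p = 0.42). MLST8 varied among its own controls, from 24.21 FPKM in sample 1 to 18.62 FPKM in sample 3, and it was called lower without that sample. AKT1S1, the complex 1 inhibitor PRAS40, had -0.022.

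DEPTOR, an inhibitor that binds mTOR itself, was too low for testing. It measured 0.85, 0.85 and 0.82 FPKM in the controls and 0.56, 0.79 and 0.45 FPKM in the knockdown samples. The groups did not overlap, and with no expression filter the log2 fold change was -0.49 and missed the threshold (edgeR adjusted p = 0.22).

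Upstream of mTOR complex 1, the TSC genes and RHEB were not called. TSC1 and TSC2 form the complex that turns RHEB off, and their log2 fold changes were 0.065 and 0.058 (edgeR adjusted p = 0.46 and 0.55). RHEB, the GTPase that activates mTOR complex 1, averaged 123 ± 5.77 FPKM in the controls and 120 ± 4.86 FPKM in the knockdown cells (SD, n = 3), with a log2 fold change of -0.050 (edgeR adjusted p = 0.49). All 3 genes had overlapping groups.

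Downstream, the substrates of mTOR complex 1 had fold changes slightly above 0 without a call, and those of RPS6KB2 and EIF4EBP1 crossed 0 when single samples were left out. RPS6KB1 and RPS6KB2, the S6 kinases, had log2 fold changes of 0.070 and 0.019. EIF4EBP1 and EIF4EBP2, which hold back translation until mTOR complex 1 phosphorylates them, had 0.018 and 0.097 (edgeR adjusted p = 0.87 and 0.13). EIF4EBP1 differed more between controls, from 179.42 FPKM in sample 1 to 148.29 FPKM in sample 3, than between the group means of 165 and 171 FPKM. EIF4EBP2 went from 15.92, 15.07 and 15.62 FPKM in BR-shCON to 16.22, 16.58 and 17.46 FPKM in BR-shSPANXB1 samples, and these groups did not overlap.

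FOXO4, a transcription factor that AKT keeps out of the nucleus, had the largest fold change of the tested members. It measured 2.7, 2.94 and 3.04 FPKM in the controls and 3.64, 3.98 and 3.81 FPKM in the knockdown samples. All knockdown samples were well above the controls. The means were 2.89 ± 0.175 and 3.81 ± 0.170 FPKM (SD, n = 3), a difference of 31.7%, and the log2 fold change was 0.39 (SE 0.095, 95% interval 0.19 to 0.58, edgeR adjusted p = 0.0057). These levels rest on few reads, from 148 to 168 estimated counts in the control samples and from 198 to 222 in the knockdown samples. FOXO4 lies at chrX:71096197-71103535 on the plus strand, and no other annotated exon overlaps it.

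The other FOXO genes were not called, and whether their changes differed from that of FOXO4 was not tested. FOXO3, the most abundant of them, measured 9.97, 9.84 and 10.07 FPKM in the controls and 10.61, 11.06 and 11.4 FPKM in the knockdown samples. Its groups did not overlap, yet the log2 fold change of 0.12 missed the threshold (SE 0.047, edgeR adjusted p = 0.082). FOXO1 had a log2 fold change of -0.10 (edgeR adjusted p = 0.54), with groups that overlapped. The summed level of the 3 genes went from 15.2 ± 0.364 to 17.0 ± 0.52 FPKM (SD, n = 3), and the share of FOXO4 in it from 19.0% ± 0.885 to 22.4% ± 0.87. GSK3A and GSK3B, kinases that AKT inhibits, had log2 fold changes of -0.019 and -0.052 (edgeR adjusted p = 0.83 and 0.48).

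Among the protein phosphatases that act on AKT, PHLPP2 and PPP2R1B rose. PHLPP2, which removes the phosphate that mTOR complex 2 adds, measured 2.79, 2.76 and 2.69 FPKM in the controls and 3.07, 3.45 and 3.54 FPKM in the knockdown samples. The controls were nearly alike, and BR-shSPANXB1 sample 1 was closest to them. The means were 2.75 ± 0.0513 and 3.35 ± 0.249 FPKM (SD, n = 3), and the log2 fold change was 0.28 (SE 0.071, 95% interval 0.13 to 0.42, edgeR adjusted p = 0.0084). Without BR-shSPANXB1 sample 3 the call was lost (edgeR adjusted p = 0.058), and limma gave an adjusted p of 0.081. PHLPP2 lies at chr16:71637835-71724701 on the minus strand, and 8.5% of its exon bases overlap MARVELD3 on the other strand, which was close to 0 at means of 0.0167 and 0.0467 FPKM.

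PHLPP1, its paralog with the same activity, was not called. It measured 7.64, 8.14 and 7.83 FPKM in the controls and 6.4, 7.1 and 7.75 FPKM in the knockdown samples, with groups that overlapped at BR-shSPANXB1 sample 3. The log2 fold change was -0.14 (SE 0.058, edgeR adjusted p = 0.11). PHLPP2 made up 26.7%, 25.3% and 25.6% of the summed PHLPP level in control samples and 32.4%, 32.7% and 31.4% in knockdown samples. The shares did not overlap, while the sum was 10.6 ± 0.249 FPKM in the controls and 10.4 ± 0.915 FPKM in the knockdown cells (SD, n = 3).

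PP2A, the other phosphatase of AKT, is built on a scaffold subunit encoded by PPP2R1A or PPP2R1B. PPP2R1B measured 22.94, 22.32 and 24.39 FPKM in the controls and 26.55, 27.34 and 29.61 FPKM in the knockdown samples, and all knockdown samples were above the controls. The means were 23.2 ± 1.06 and 27.8 ± 1.59 FPKM (SD, n = 3), and the log2 fold change was 0.19 (SE 0.047, 95% interval 0.09 to 0.28, edgeR adjusted p = 0.0076). The call was lost without BR-shSPANXB1 sample 3 (edgeR adjusted p = 0.07). The gene lies at chr11:111726908-111766427 on the minus strand, and 2.2% of its exon bases overlap SIK2 on the other strand, whose own log2 fold change was -0.0039.

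The rest of PP2A was not called. PPP2R1A, the more abundant scaffold, had a log2 fold change of 0.080 (edgeR adjusted p = 0.22). The summed level of both scaffolds was 68.6, 67.8 and 66.1 FPKM in the controls and 75.2, 75.0 and 75.0 FPKM in the knockdown samples, without overlap. PPP2CA and PPP2CB, the catalytic subunits, stayed at 69.1 against 68.5 FPKM and at 67.1 against 67.2 FPKM, with log2 fold changes of -0.026 and -0.016 (edgeR adjusted p = 0.73 and 0.85).

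INPP4B, a lipid phosphatase that removes the 4-phosphate of PI(3,4)P2 and is known as a tumour suppressor in breast epithelium, fell. It measured 12.81, 12.71 and 13.99 FPKM in the controls and 11.59, 11.59 and 11.71 FPKM in the knockdown samples. The knockdown samples were nearly alike and below every control, of which sample 3 was highest. The means were 13.2 ± 0.712 and 11.6 ± 0.0693 FPKM (SD, n = 3), and the log2 fold change was -0.14 (SE 0.046, 95% interval -0.24 to -0.048, edgeR adjusted p = 0.038). This call was lost without BR-shCON sample 3 and without BR-shSPANXB1 sample 1 or 2 (edgeR adjusted p up to 0.18), and in DESeq2 (adjusted p = 0.091) and limma (adjusted p = 0.08). INPP4B lies at chr4:142023160-142847432 on the minus strand, with 0.8% of its exon bases overlapped by a lincRNA on the other strand.

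The other lipid phosphatases were not called. INPP4A, which has the same activity as INPP4B, had a log2 fold change of 0.087 (edgeR adjusted p = 0.31). INPPL1, also known as SHIP2, removes the 5-phosphate of PIP3 and measured 28.37, 27.11 and 24.85 FPKM in the controls and 29.9, 29.84 and 28.04 FPKM in the knockdown samples. These groups overlapped between BR-shCON sample 1 and BR-shSPANXB1 sample 3, and the log2 fold change was 0.12 (edgeR adjusted p = 0.092).

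**Figure D3:**
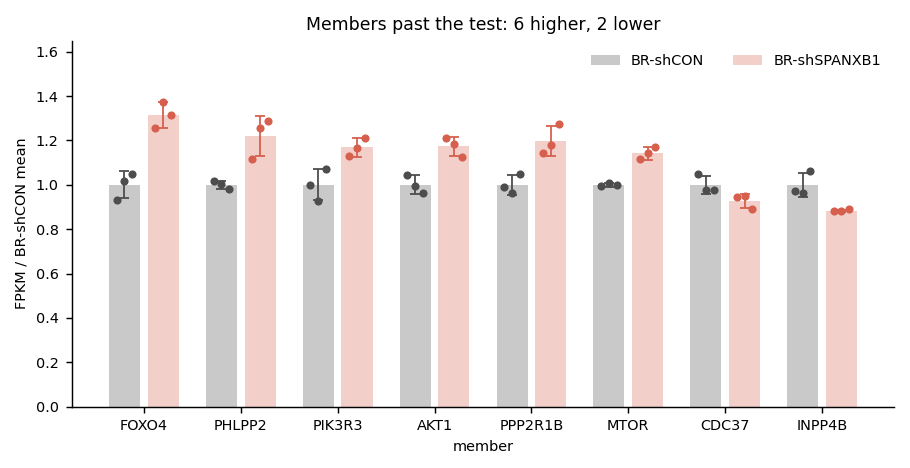
FPKM divided by the BR-shCON mean of the same gene (vertical axis, from 0) for the 8 members past the test; bars are group means, error bars are 1 SD, and points are the 3 samples of each group in order of replicate number. FOXO4 differs most, by 31.7%, and for the 2 members at the right, CDC37 and INPP4B, all BR-shSPANXB1 points lie below the BR-shCON points.

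At the top of the pathway, the class I catalytic subunits were not called. PIK3CA and PIK3CB, the widely expressed p110 alpha and beta, had log2 fold changes of -0.0042 (95% interval -0.11 to 0.1) and 0.0041 (95% interval -0.088 to 0.096). PIK3CD, the p110 delta better known from leukocytes, measured 9.73, 9.0 and 9.07 FPKM in the controls and 10.52, 10.87 and 9.61 FPKM in the knockdown samples, with an overlap and a log2 fold change of 0.14 (edgeR adjusted p = 0.11). Among these members PIK3CB was the most abundant, at 44.9% of their summed FPKM in the controls and 44.2% in the knockdown cells. That sum leaves out PIK3CG, a further class I catalytic gene that is not among the members. PIK3CG averaged 4.64 FPKM in the controls and 4.77 FPKM in the knockdown cells. PIK3CA shares 35.8% of its exon bases with KCNMB3 on the other strand, which had means of 0.673 and 0.913 FPKM.

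Of the regulatory subunits, PIK3R3, which encodes p55 gamma, rose. It measured 4.71, 4.37 and 5.03 FPKM in the controls and 5.31, 5.48 and 5.7 FPKM in the knockdown samples. The groups did not overlap, although BR-shCON sample 3 came near. The means were 4.70 ± 0.330 and 5.50 ± 0.196 FPKM (SD, n = 3), and the log2 fold change was 0.22 (SE 0.072, 95% interval 0.072 to 0.37, edgeR adjusted p = 0.04). The call was lost without BR-shCON sample 1 or 2 and without BR-shSPANXB1 sample 2 or 3 (edgeR adjusted p up to 0.2), and in DESeq2 (adjusted p = 0.12) and limma (adjusted p = 0.1). PIK3R3 lies at chr1:46040140-46133036 on the minus strand and shares 17.4% of its exon bases with AL358075.4, annotated on the same strand, so its reads may be split.

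PIK3R1, which encodes p85 alpha, had the lowest fold change of all tested members without being called. It measured 8.18, 8.63 and 9.78 FPKM in the controls and 7.72, 7.58 and 8.6 FPKM in the knockdown samples, with groups that overlapped, and the log2 fold change was -0.17 (SE 0.062, 95% interval -0.3 to -0.045, edgeR adjusted p = 0.063). Without an expression filter it was called lower (edgeR adjusted p = 0.020). The same held without BR-shCON sample 1 (edgeR adjusted p = 0.018) and without BR-shSPANXB1 sample 3 (edgeR adjusted p = 0.016). Without BR-shCON sample 3 the edgeR adjusted p was 0.3. With the replicate block described below, PIK3R1 was called in 4 of 15 fits. PIK3R2, which encodes p85 beta, made up 79.6% of the summed regulatory FPKM in the controls and 79.4% in the knockdown cells, and its log2 fold change was -0.043 (edgeR adjusted p = 0.63). It shares 87.2% of its exon bases with a read-through gene model on the same strand, AC007192.1, so its level is uncertain.

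The class II and class III PI3K genes make other lipids, for endocytosis and autophagy. PIK3C2A measured 8.39, 7.94 and 8.28 FPKM in the controls and 7.69, 7.73 and 7.83 FPKM in the knockdown samples, with no overlap and a log2 fold change of -0.10 (edgeR adjusted p = 0.18). PIK3C3, the catalytic subunit VPS34, had a log2 fold change of 0.062, and PIK3R4, its partner VPS15, had -0.080. PIK3C2B was below the filter at 0.5, 0.6 and 0.61 FPKM in the controls and 0.79, 0.75 and 0.64 FPKM in the knockdown samples. Its groups did not overlap, and with no expression filter the log2 fold change was 0.33 and missed the threshold (edgeR adjusted p = 0.16).

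In all, the groups were fully separated for 11 of the 42 tested members, which were the 8 that were called and PIK3C2A, EIF4EBP2 and FOXO3. The same held for 28.6% of all genes tested. For a single member, an exact permutation test over 3 against 3 samples cannot give a two-sided p below 0.1, and each called member reached that value.

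Same-numbered samples deviated together across genes, at correlations of 0.113, 0.150 and 0.159, so the replicate number was also entered as a block. In this paired fit 11 members were called higher and 4 lower, at a background of 12.7% and 13.0% of all genes tested. All 8 calls were kept, with a blocked adjusted p of 4.6e-09 for AKT1, 3.5e-06 for MTOR, 5.6e-05 for PPP2R1B, 0.00064 for PHLPP2, 0.00075 for FOXO4, 0.0047 for PIK3R3, 0.0016 for INPP4B and 0.00016 for CDC37. The block added PIK3CD (0.023), INPPL1 (0.0028), PPP2R1A (0.019), EIF4EBP2 (0.019) and FOXO3 (0.015) on the higher side and PIK3R1 (0.0020) and PHLPP1 (0.029) on the lower side, by edgeR adjusted p.

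The calls differed in how often another fit repeated them. AKT1, MTOR and FOXO4 were called in the unpaired fit and in each of the 6 fits without 1 sample, which held for 6.33% of all genes tested. Their highest adjusted p in those 6 fits was 0.0063 for AKT1, 0.018 for MTOR and 0.037 for FOXO4 by edgeR. AKT1 and MTOR were called in all 15 fits, FOXO4 and PPP2R1B in 14, PHLPP2 in 10, CDC37 and INPP4B in 8 and PIK3R3 in 7. FOXO4 was not tested in the remaining fit, which asked for a mean of at least 5 FPKM.

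**Figure D4:**
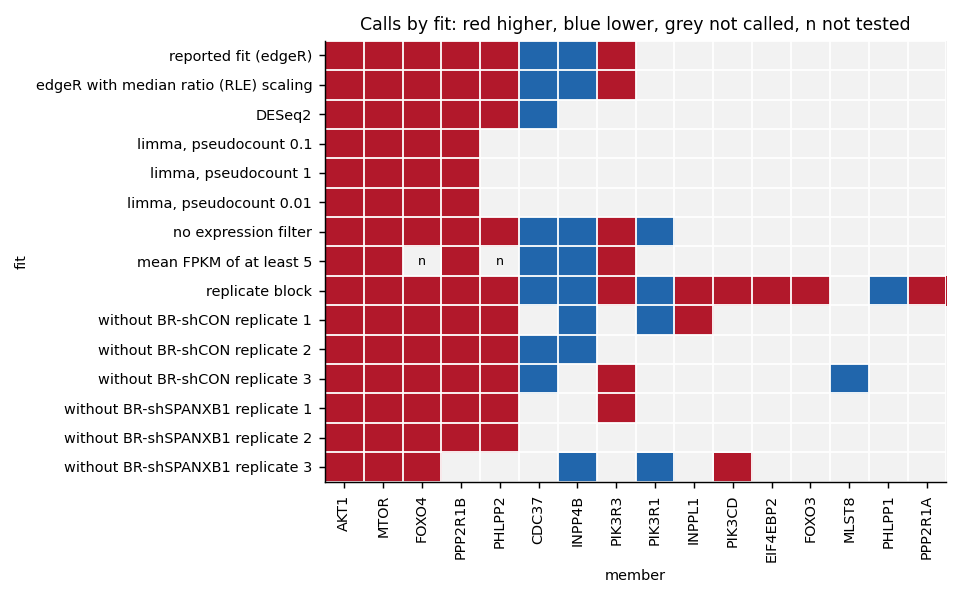
Calls of the 16 members called in at least 1 of 15 fits (columns) under each fit (rows); red is higher, blue is lower, grey is not called and n is not tested. AKT1 and MTOR are red in all 15 rows, CDC37 and INPP4B are blue in 8 rows each, and the replicate block calls the most members, 11 higher and 4 lower.

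The balance within a pair of related members was compared for 19 pairs, as a log2 ratio of FPKM within each sample, which does not depend on library scaling. In 6 pairs the groups were fully separated. Levels of single genes were fully separated for 28.6% of all genes tested. The share among other pairs of genes was not computed, so nothing particular to these pairs is read from such counts. AKT1 over AKT2 shifted by 0.30 and INPP4A over INPP4B by 0.27 towards the gene named first in BR-shSPANXB1 cells, on the log2 scale. PHLPP1 over PHLPP2 shifted by -0.44, PIK3C2A over PIK3C2B by -0.43, FOXO1 over FOXO3 by -0.23 and PIK3CA over PIK3CD by -0.18, each towards the gene named last. PIK3C2B lay below the filter, at a mean of 0.648 FPKM. Its pair was uneven, with shifts of -0.79, -0.36 and -0.15 between samples numbered 1, 2 and 3. Every one of these 6 pairs had the smallest p that the design allows, 0.1 in a two-sided exact permutation test. After Benjamini-Hochberg adjustment over the 19 pairs this permutation p was 0.32, so none passed. With samples paired by replicate number, the ratio moved the same way in all 3 numbers in 12 of the 19 pairs, these 6 and a further 6 whose groups overlapped, such as PIK3R2 over PIK3R3 at a mean shift of -0.26 and PPP2R1A over PPP2R1B at -0.17. An exact sign-flip permutation test over 3 numbers cannot give a two-sided p below 0.25, which each of the 12 reached.

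Between the mTOR complexes the balance was within the spread. The ratio of RPTOR to RICTOR was 1.23, 1.29 and 1.01 in the controls and 1.05, 1.25 and 1.11 in the knockdown samples. The ratio of TSC1 to TSC2 was 0.645, 0.65 and 0.782 in the former and 0.64, 0.657 and 0.771 in the latter. In both pairs the groups overlapped throughout (exact permutation p = 0.9 for each).

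**Figure D5:**
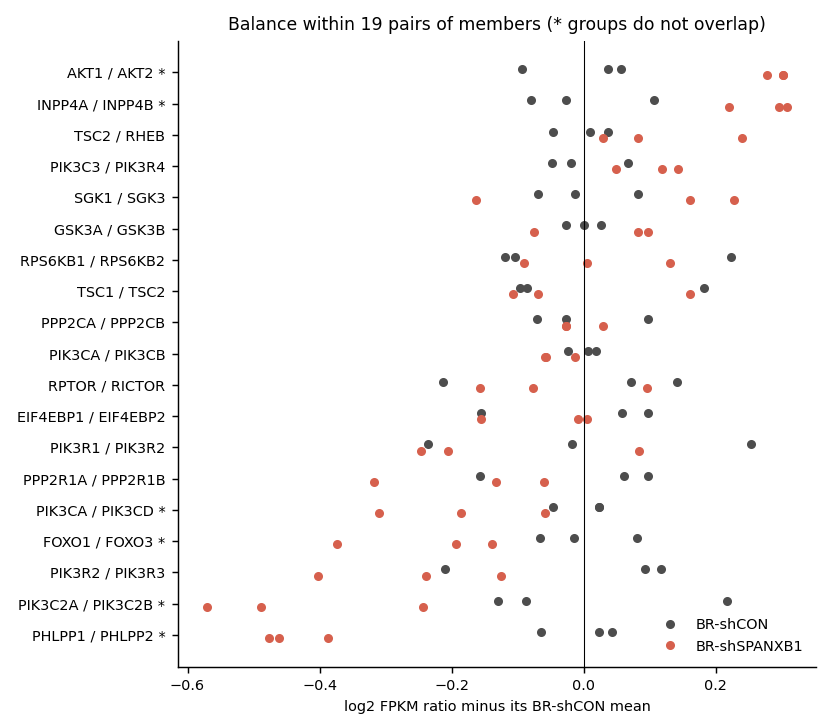
Log2 ratio of FPKM between the members of 19 pairs in each sample, with the BR-shCON mean of the pair subtracted (horizontal axis), for 3 BR-shCON samples (grey, upper points) and 3 BR-shSPANXB1 samples (red, lower points). The 6 pairs with an asterisk have groups that do not overlap, from AKT1 over AKT2 at a mean shift of 0.30 to PHLPP1 over PHLPP2 at -0.44.

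Promoter sequences were searched because YY1, a transcription factor that the study places between SPANXB1 and MMP1, fell from 29.3 ± 1.32 to 25.5 ± 0.917 FPKM (SD, n = 3, log2 fold change -0.21, edgeR adjusted p = 0.00066), and because the FOXO factors are themselves members. RefSeq promoters on GRCh38.p14, from 250 bases before to 50 after the start, matched 38 of the 44 members. The YY1 letters gccatntt, on either strand, occurred in 7 of these 38 (18.4%) and in 10.8% of the 9483 promoters of tested genes. The FOXO letters gtaaaca occurred in 2 of 38 (5.26%) and in 2.34% of promoters. The windows below are those of the called members PPP2R1B and FOXO4 and, for contrast, of RPTOR and RICTOR, which were not called, with the matching letters in capitals and written along the gene.
PPP2R1B, chr11:111766346-111766375, minus strand, YY1 letters: ggaggagaaagAACATGGCgggcgcatcag
RPTOR, chr17:80544835-80544864, plus strand, YY1 letters: tgggtcctggcAATATGGCgtcctccttga
RICTOR, chr5:39074362-39074391, minus strand, YY1 letters: tgaaacccgtcAATATGGCggcgatcggcc
FOXO4, chrX:71095863-71095892, plus strand, FOXO letters: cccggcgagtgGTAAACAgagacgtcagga
Counted from the RefSeq start, the matches begin 25 bases after it in PPP2R1B, 8 in RPTOR, 19 in RICTOR and 23 in FOXO4. The RefSeq start of FOXO4 lies upstream of the GENCODE start given above. The other promoters with the YY1 letters were those of TSC1, PPP2CA, PPP2R1A and RPS6KB2, and PIK3CA also held the FOXO letters. Of the 7 members with YY1 letters, only PPP2R1B was called in the unpaired fit, and it rose. A match of letters is a description of the sequence and not a bound site.

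Genes next to the members in the pathway were read from 4 lists. The 28 tested genes of amino acid sensing at the lysosome, which bring mTOR complex 1 to its activator, had a median of -0.014 on the log2 scale, against 0.00023 for all genes tested. The replicate block, described above, called 3 of them lower, against 13.0% of all genes tested.

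Of 23 tested adaptors and further regulators, 1 rose and 3 fell (6.82% and 6.98% of all genes), with a median of -0.03. The block called 3 higher and 7 lower (12.7% and 13.0% of all genes). TRIB2, a pseudokinase that binds AKT, rose by a log2 fold change of 0.21 (edgeR adjusted p = 0.005) and was called in all 6 fits without 1 sample. IRS1, the adaptor that links the insulin and IGF receptors to PI3K, had -0.15 (edgeR adjusted p = 0.018). GAB1, a docking protein that binds PI3K, had -0.28 and TRIB1 had -0.23 (edgeR adjusted p = 0.022 and 0.016). The 3 calls on the lower side were each lost in at least 1 fit without 1 sample, with adjusted p up to 0.13 for IRS1, 0.11 for GAB1 and 0.074 for TRIB1.

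Of 16 tested output kinases and translation factors, 2 rose (6.82% of all genes) and the other 14 were not called, with a median of 0.014. With the block, 5 were higher and 5 lower, against 12.7% and 13.0% of all genes. GRB10, an mTOR complex 1 substrate that dampens insulin and IGF receptor signals, measured 23.58, 24.0 and 22.43 FPKM in the controls and 36.16, 35.68 and 34.07 FPKM in the knockdown samples. The groups were far apart, at 23.3 ± 0.813 and 35.3 ± 1.09 FPKM (SD, n = 3), a larger fold difference than in any tested member. Its log2 fold change was 0.58 (SE 0.042, 95% interval 0.49 to 0.66, edgeR adjusted p = 4.6e-11). ULK1, the autophagy kinase that mTOR complex 1 inhibits, went from 3.95 ± 0.176 to 5.02 ± 0.44 FPKM (SD, n = 3), with a log2 fold change of 0.34 (edgeR adjusted p = 0.0027).

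Of 18 tested genes known as targets of FOXO factors, 5 rose and 2 fell, where 6.82% and 6.98% of all genes did, and the list's median log2 fold change was 0.12. Under the block 9 were higher and 3 lower, against 12.7% and 13.0% of all genes. FBXO32, the ubiquitin ligase subunit atrogin-1, went from 5.94 ± 0.316 to 7.21 ± 0.114 FPKM (SD, n = 3), with a log2 fold change of 0.27 (edgeR adjusted p = 0.0015). TXNIP, the thioredoxin inhibitor, had 0.18 (edgeR adjusted p = 0.0019), and SOD2, the mitochondrial superoxide dismutase, had 0.17 (edgeR adjusted p = 0.0024). GADD45A, a growth arrest gene, had 0.19 (edgeR adjusted p = 0.0093) and missed the threshold without BR-shCON sample 3 (0.054). The other calls were CAT on the higher side and CITED2 and TRIB1 on the lower side, each lost in some fits without 1 sample, and TRIB1 is the gene also counted among the regulators. Many of these targets answer to other factors too, and whether FOXO proteins took part was not tested.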

How the data were processed

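Polyadenylated RNA of 3 BR-shCON and 3 BR-shSPANXB1 samples was sequenced from both ends. The authors deposited estimated counts, not normalized, FPKM values, scaled by the authors for transcript length and mapped fragments, and TPM values deposited beside them and not used here. HISAT2 2.0.4, Bowtie2 2.2.5 and the build GRCh38.p12 are listed, without their roles, in the submitters' processing notes. The sources used here do not name the counting program or the annotation. The authors' mean columns were not used.

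Counts were rounded, since 14.1% to 14.9% of values per sample were not whole, and tested with edgeR 4.0.16 (TMM, robust quasi-likelihood) in R 4.3.3 over 11439 genes that averaged at least 1 FPKM, with Benjamini-Hochberg adjustment over all of them. Totals of 16294462 to 16666167 counts per sample and a biological coefficient of variation of 0.0339 set the precision, and each gene's variance was drawn towards that of other genes (median prior degrees of freedom 23.8). Replicates of a group differed by more than sampling noise (chi-square per degree of freedom 2.02 to 3.12). Same-numbered samples correlated at 0.113, 0.150 and 0.159 in their deviations from the group means, each above 0.1, so samples were treated as paired by number in the block fit. The labels do not say what a number shares. The fit was tested on simulated data, in which the planted changes were larger than that of any tested member. It therefore does not show how well changes of the members' size are found.

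Alternatives were RLE scaling, DESeq2 1.42.0, limma 3.58.1 on log2(FPKM + 0.1, 1 or 0.01), no expression filter, a mean of at least 5 FPKM, the replicate block, and leaving out each sample in turn. Ratios were compared by exact permutation tests (scipy 1.17.1) and, added after seeing the data, by exact sign-flip tests within replicate numbers. Gene positions and overlaps came from GENCODE on GRCh38, matched by Entrez number, promoters from RefSeq on GRCh38.p14, and the shRNA from the study's oligo list. Figures used matplotlib 3.10.9 in Python 3.11.15. Text named SPANXB1, MMP1, every member, and up to 4 genes of each further list with the smallest adjusted p under 0.05. Other genes named, such as YY1, CAT, CITED2 and genes that overlap a member, fell outside this rule. The members and lists were chosen with earlier results of these data known. Some results are not reported here.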

Additional observations from a re-analysis of the deposited data

How the results depend on the processing

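Under 14 alternatives, the 584 recomputed log2 fold changes of members kept direction and side of the threshold in 521, lost a call in 27, gained one in 13 and changed sign in 23. The sign changes were in 13 members that were not called, at sizes up to 0.055, and no called member changed sign. No member passed the study's criteria under any alternative. The replicate block called 11 members higher and 4 lower, 2935 genes in all, and 34 other pathway genes (18 higher, 16 lower) against 13 without it. Members called lower went from 2 to 1 with DESeq2 and 0 with limma at each pseudocount, and from 0 to 2 without single samples. All tested genes called were 1579 in the reported fit, 1020 with DESeq2, 866, 873 and 867 with limma at pseudocounts of 0.1, 1 and 0.01, and 1041 to 1466 without single samples. Other pathway genes called were 7 with limma at each pseudocount, with 0 lower, and the lower ones were 1 to 7 without single samples. Paired by replicate number, an alternative added after seeing the data, 12 pairs moved the same way in every number, against 6 that did not overlap. Pairs that did not overlap were 6 to 12 without single samples, 12 without BR-shCON sample 3 and 10 without BR-shSPANXB1 sample 3. Leaving out a sample cannot undo a separation, so this count could not fall below 6. Leaving out single samples moved the log2 fold change across 0 in PIK3CA (-0.042 to 0.037), PIK3CB (-0.0089 to 0.019), PIK3R2 (-0.095 to 0.02), SGK1 (-0.063 to 0.015), SGK3 (-0.24 to 0.01), PPP2CA (-0.054 to 0.017), PPP2CB (-0.036 to 0.0087), RPTOR (-0.11 to 0.0027), RICTOR (-0.022 to 0.056), AKT1S1 (-0.046 to 0.013), RPS6KB2 (-0.024 to 0.049), EIF4EBP1 (-0.055 to 0.099) and GSK3A (-0.045 to 0.01). PPP2CB was 0.00082, 0.00081 and 0.00082 with limma at pseudocounts of 0.1, 1 and 0.01. The cause was not tested. Members of few counts, such as FOXO4, are limited by counting error.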
